A study of Mus musculus with 48 samples.

Results

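The circadian clock genes described here are Per1, Per2, Per3, Arntl, Clock, Cry1, Cry2, Dbp, Nr1d1 and Nr1d2, taken by symbol from the gene table, where all 10 were present among 23420 genes. Their transcripts were counted in the striatum of 16 mice at about 50 days of age. The congenic group of 8 mice carried the segment that the labels call 112kb congenic, on a C57BL/6J (B6) background, and the other 8 mice were B6 wild-type littermates, and each genotype had 4 females and 4 males. As background, the segment is of DBA/2J origin, on chromosome 11, and holds Hnrnph1 and Rufy1. Punches of 3 mm from both sides of a brain were pooled, so a sample is 1 mouse. The library of a mouse was run on 3 lanes, which were summed. Mice are named as in their labels, Sample_ and a number. The sources used here do not say at what time of day each mouse was killed. The series title asks about splicing, and the genes below were compared by genotype in level and in exon use.

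The clock is a transcriptional loop present in most cells. The proteins of Arntl (also called Bmal1) and Clock pair and bind E-boxes, which switches on the Per and Cry genes, Nr1d1, Nr1d2 and Dbp. PER and CRY proteins return to the nucleus and hold the pair back, NR1D1 and NR1D2 repress Arntl through ROR elements, and DBP acts through D-boxes. Over a day, Arntl transcripts therefore peak roughly opposite to those of Dbp and Nr1d1. Per1 and Per2 also answer to neuronal activity and hormones as early response genes.

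The promoter sequences show which of these elements lie at the start of each gene. RefSeq promoters on GRCm38.p6, from 250 bases before to 50 bases after a start site, were found for 9 of the 10 genes; Per2 had no entry. 5 kinds of element were searched on both strands, and none of their letters contains another. The E-box CACGTG occurred in 7.15% of all 32851 promoters, the E-prime box CACGTT in 4.69%, the D-box TTANGTAA in 2.32%, the ROR element ANTAGGTCA in 0.661% and the cAMP response element TGACGTCA in 1.79%. The windows below are shown because they hold every match found in the 9 genes. Capitals mark the match, and the sequence runs 5′ to 3′ on the strand of the gene, so that AACGTG is the E-prime box read from its other strand. Positions are counted from the start site.

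Per1, E-box from base -166, chr11:69098758-69098813, plus strand: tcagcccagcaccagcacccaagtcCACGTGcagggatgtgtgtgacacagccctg
Cry1, E-prime box from base -79 and E-box from base -60, chr10:85185084-85185158, minus strand: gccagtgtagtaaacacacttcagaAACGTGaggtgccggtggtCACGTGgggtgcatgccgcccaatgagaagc
Cry2, E-prime box from base -166, chr2:92434205-92434260, minus strand: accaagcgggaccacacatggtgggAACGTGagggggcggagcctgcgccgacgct
Nr1d1, E-prime box from base -28, chr11:98775375-98775430, minus strand: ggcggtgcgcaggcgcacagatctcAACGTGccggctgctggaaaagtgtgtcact
Per3, D-boxes from bases -205 and -158, chr4:151044791-151044895, minus strand: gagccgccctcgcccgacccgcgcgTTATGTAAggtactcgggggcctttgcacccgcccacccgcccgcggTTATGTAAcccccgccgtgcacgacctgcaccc
Arntl, ROR element from base 28, chr7:113207529-113207557, plus strand: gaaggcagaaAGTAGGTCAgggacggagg

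No listed element was found in the windows of Clock, Dbp and Nr1d2, and no window held the cAMP response element. A match describes letters only and is not evidence that a factor binds there.

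The depth was alike in all mice, with totals over all genes of 73.1 to 82.0 M counts, M being the mega prefix. The tissue label was checked against 12 markers of striatal projection neurons, whose summed level was 9626 to 11959 CPM (counts of a gene over the total of the mouse in M) in every mouse. The summed level of 8 markers of cortical excitatory neurons was much lower but uneven, from 33.7 to 274 CPM. Xist was at 2.73 CPM in Sample_4806, which is labelled female, and at 958 to 1535 CPM in the remaining 7 females. Males had at most 17.3 CPM. The results of Per1, Per2 and Cry1 by sex are therefore also given without Sample_4806. All other results by sex keep that mouse as a female, except where each mouse is left out in turn. In bulk tissue, fewer cells of a type and less RNA per cell cannot be told apart.

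All 10 clock genes were well above the detection limit, the lowest value being 2228 counts for Cry1. Levels are set side by side per kb of all annotated exon, so the order depends on the annotation. The length of Per3 includes a stretch of 2255 bases, and that of Cry2 a stretch of 1748 bases, annotated as neither coding sequence nor untranslated region. These stretches had means of 270 and 248 counts. Nr1d1, which encodes the nuclear receptor REV-ERB alpha, had the highest level in the gene table, 48.8 ± 3.58 CPM per kb (SD, n = 16). It was followed by Dbp at 26.4 ± 3.68 CPM per kb, Nr1d2 (REV-ERB beta) at 23.9 ± 2.32 CPM per kb and Arntl at 22.4 ± 3.66 CPM per kb (SD, n = 16 each). Cry2 stood at 19.9 ± 1.51 CPM per kb, Per1 at 15.4 ± 4.96 CPM per kb, Cry1 at 12.9 ± 1.84 CPM per kb and Clock at 11.8 ± 1.16 CPM per kb (SD, n = 16 each). Per2 had 9.25 ± 2.13 CPM per kb and Per3 4.71 ± 0.488 CPM per kb (SD, n = 16 each). In the gene table Nr1d1 was clear of its neighbour in this order, and every other pair of neighbours overlapped in range. In the table of exon bins, described at the end, Nr1d1 was not the highest: its bins gave 19.5 ± 2.95 per kb in counts per M of bin counts, against 24.8 ± 3.40 for Dbp and 23.1 ± 3.87 for Arntl (SD, n = 16 each), all overlapping in range. The place of Nr1d1 in the order thus depends on the table. Part of Nr1d1 overlaps Thra on the opposite strand over 263 exonic bases, and Thra had 479 CPM. Dbp overlaps Sphk2 over 491 exonic bases and Cry2 overlaps D930015M05Rik over 295, also on the opposite strand, and the sources used here do not say whether counting used the strand.

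The genes differed widely in how much they varied between mice. Per1, which encodes a repressor of the loop, ranged from 56.9 CPM in Sample_4806 to 139.8 CPM in Sample_4731, a coefficient of variation of 32.1% over 16 mice. Its close relative Per2 ranged from 32.0 CPM in Sample_4806 to 72.5 CPM in Sample_4671, a coefficient of variation of 23.0%. Arntl varied by 16.3%, Cry1 by 14.3% and Dbp by 13.9%. Per3, the least studied of the Per genes, varied by 10.4%, Clock by 9.77%, Nr1d2 by 9.69%, Cry2 by 7.59% and Nr1d1 by 7.33%. The low figure of Nr1d1 holds for the gene table only, since its summed bins ranged from 45.7 to 79.4 counts per M of bin counts and varied by 15.2%, where those of the other 9 genes varied by between 7.98% for Cry2 and 32.5% for Per1. The 3 lanes of a mouse gave a median coefficient of variation of 2.05% for Nr1d2 to 4.73% for Cry1. Among genes of like level, the SD of log2 CPM of Per1 stood at percentile 99.7, Per2 at 99.6, Arntl at 98.8, Cry1 at 97.9 and Dbp at 97.3, all from gene counts.

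**Figure D1:**
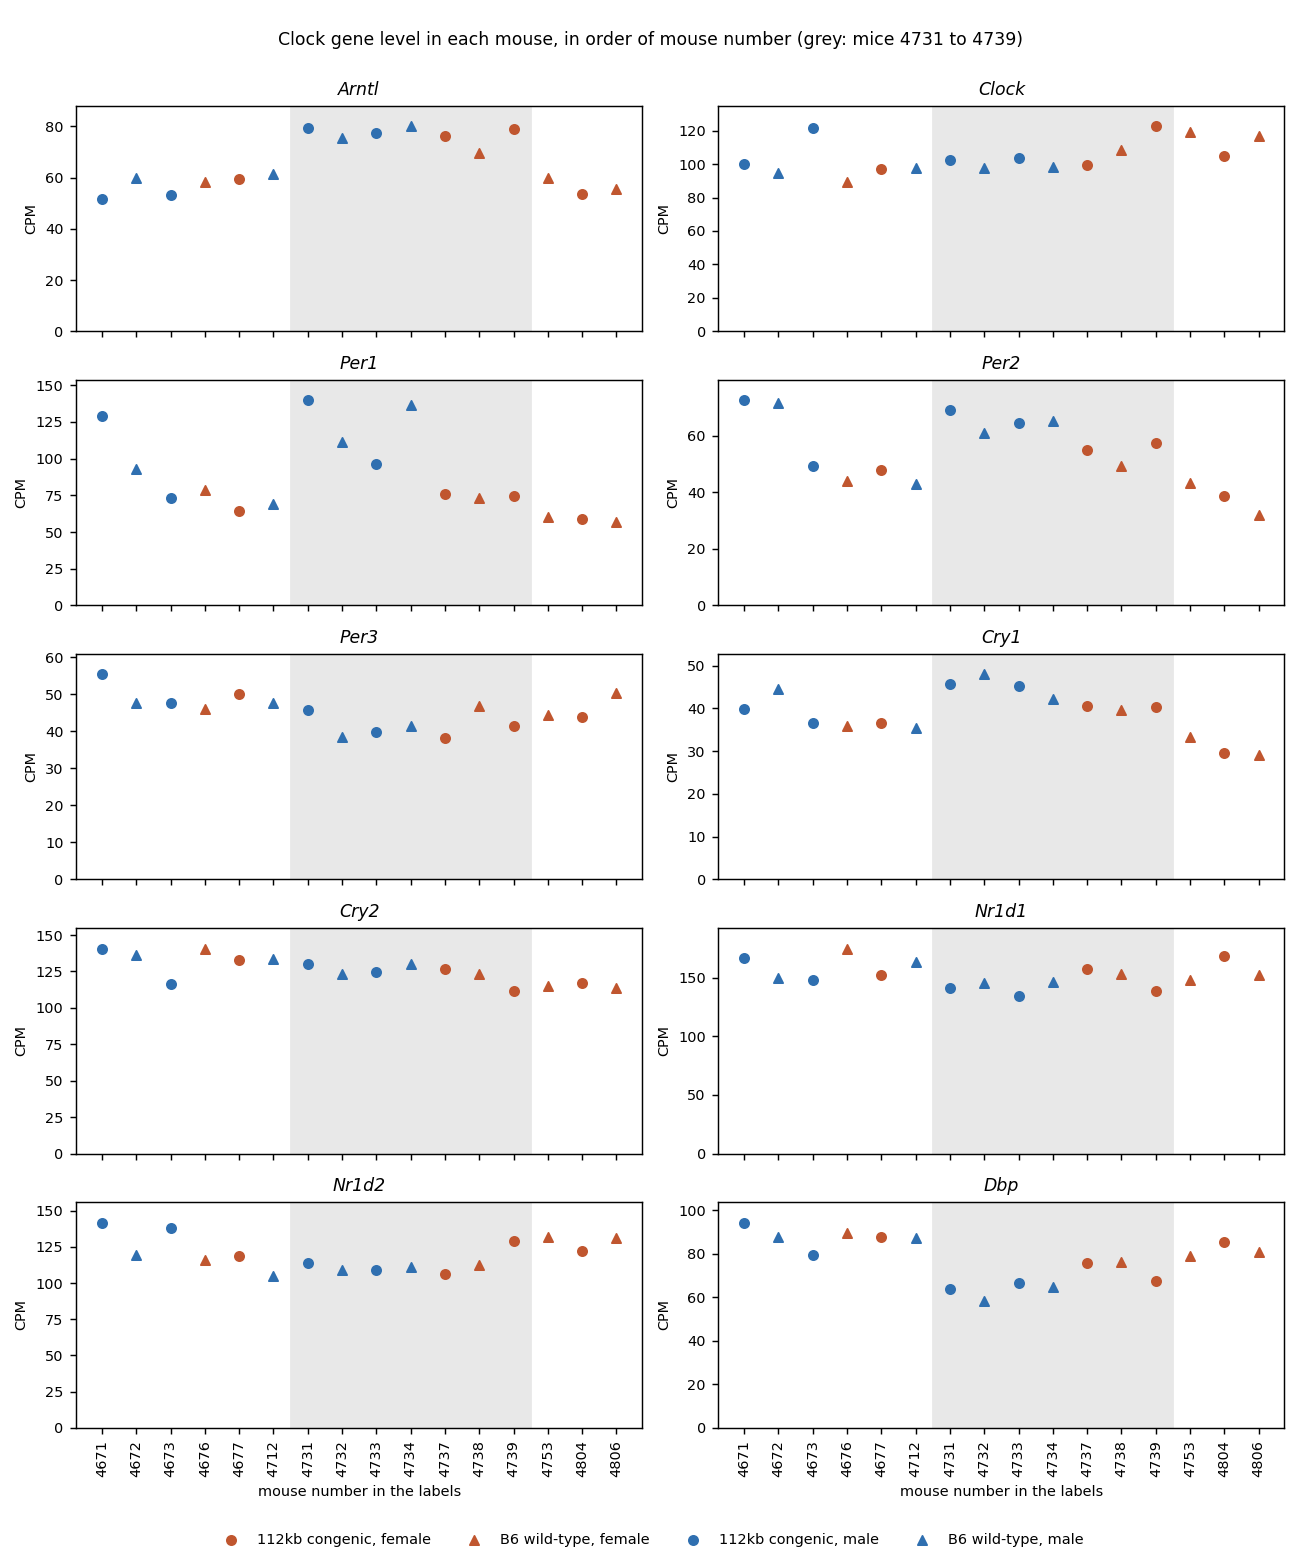
Level of each clock gene in CPM (vertical axis, from 0) in each of 16 mice in order of mouse number (horizontal axis), with colour for sex and shape for genotype. In the grey band of mice Sample_4731 to Sample_4739, Arntl lies at 69.7 to 80.0 CPM and Dbp at 58.3 to 76.5 CPM, clear of the other mice in opposite directions.

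Arntl and Dbp, which belong to opposite phases of the loop, split the mice along the numbers in the labels and not along genotype or sex. The split was noticed after the values were seen, so it is given as a description with no test. Mice Sample_4731, Sample_4732, Sample_4733, Sample_4734, Sample_4737, Sample_4738 and Sample_4739 include 4 males and 3 females, 4 of them congenic. In these 7 mice Arntl had 69.7 CPM at the lowest, a median of 77.4 CPM and 80.0 CPM at the highest. In the other 9 mice it had 51.5, 58.4 and 61.4 CPM, so the ranges did not overlap. The mean was 76.7 ± 3.54 CPM (SD, n = 7) against 56.9 ± 3.56 CPM (SD, n = 9), a ratio of 1.35. Dbp, a transcription factor of the clock's output, moved the other way. Its lowest, median and highest values were 58.3, 66.7 and 76.5 CPM in the 7 mice and 79.1, 87.3 and 94.4 CPM in the other 9, again with no overlap in the gene table, although the summed exon bins of Dbp did overlap. The mean was 67.6 ± 6.48 CPM (SD, n = 7) against 85.8 ± 5.10 CPM (SD, n = 9), a ratio of 0.788. Of 16716 genes tested, 22 (0.132%) did not overlap between the 7 and the 9 mice, and Arntl and Dbp were 2 of them.

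The other 8 clock genes overlapped between these sets of mice. Cry1 had 43.1 ± 3.21 CPM in the 7 mice (SD, n = 7) against 35.7 ± 4.80 CPM in the other 9 (SD, n = 9). Per3 had 41.6 ± 3.37 against 48.1 ± 3.49 CPM, Nr1d1 145 ± 8.10 against 158 ± 10.1 CPM and Nr1d2 113 ± 7.58 against 125 ± 11.8 CPM (SD, n = 7 and n = 9). The summed exon bins of Nr1d1 stood further apart, at 55.2 ± 6.19 against 65.1 ± 9.11 counts per M of bin counts, and also overlapped. Clock was level, at 104.7 ± 8.75 and 104.6 ± 11.8 CPM (SD, n = 7 and n = 9), and Cry2 had 124 ± 6.40 and 127 ± 11.7 CPM. Per1 and Per2 had higher means in the 7 mice, 101 ± 28.9 against 75.9 ± 22.9 CPM and 60.3 ± 6.75 against 49.2 ± 13.9 CPM, with wide overlap. Striatal markers summed to 10895 to 11462 CPM in the 7 mice and 9626 to 11959 CPM in the other 9. Cortical markers summed to 46.4 to 243 and 33.7 to 274 CPM, so the ranges of both lists overlapped. The cortical median was lower in the 7 mice, at 71.0 CPM against 193 CPM. The part of cortical tissue in the split was not tested. The part of the time of collection in the split was not tested.

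Of 20 other genes of the clock and its output, none was clear between the same sets of mice, and their means varied in both directions. Nfil3, a repressor that competes with DBP at D-boxes, had 6.47 ± 0.511 CPM in the 7 mice (SD, n = 7) and 5.39 ± 0.426 CPM in the other 9 (SD, n = 9). The relatives of Dbp stood on the same side as Dbp. Tef had 436 ± 20.1 against 474 ± 20.9 CPM and Hlf 189 ± 5.76 against 205 ± 14.6 CPM (SD, n = 7 and n = 9). Arntl2, a relative of Arntl, stood on the opposite side from Arntl, with 3.34 ± 0.588 against 3.95 ± 0.475 CPM and a ratio of 0.846. Usp2, a deubiquitinase gene driven by the clock, had 61.9 ± 7.56 against 74.5 ± 8.75 CPM. Ciart, listed under its older symbol Gm129, had a ratio of means of 0.837. The kinase genes Csnk1d and Csnk1e, whose products phosphorylate PER proteins, were level, Csnk1d at 154 ± 5.64 against 153 ± 5.55 CPM and Csnk1e at 73.5 ± 3.44 against 72.7 ± 2.35 CPM.

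**Figure D2:**
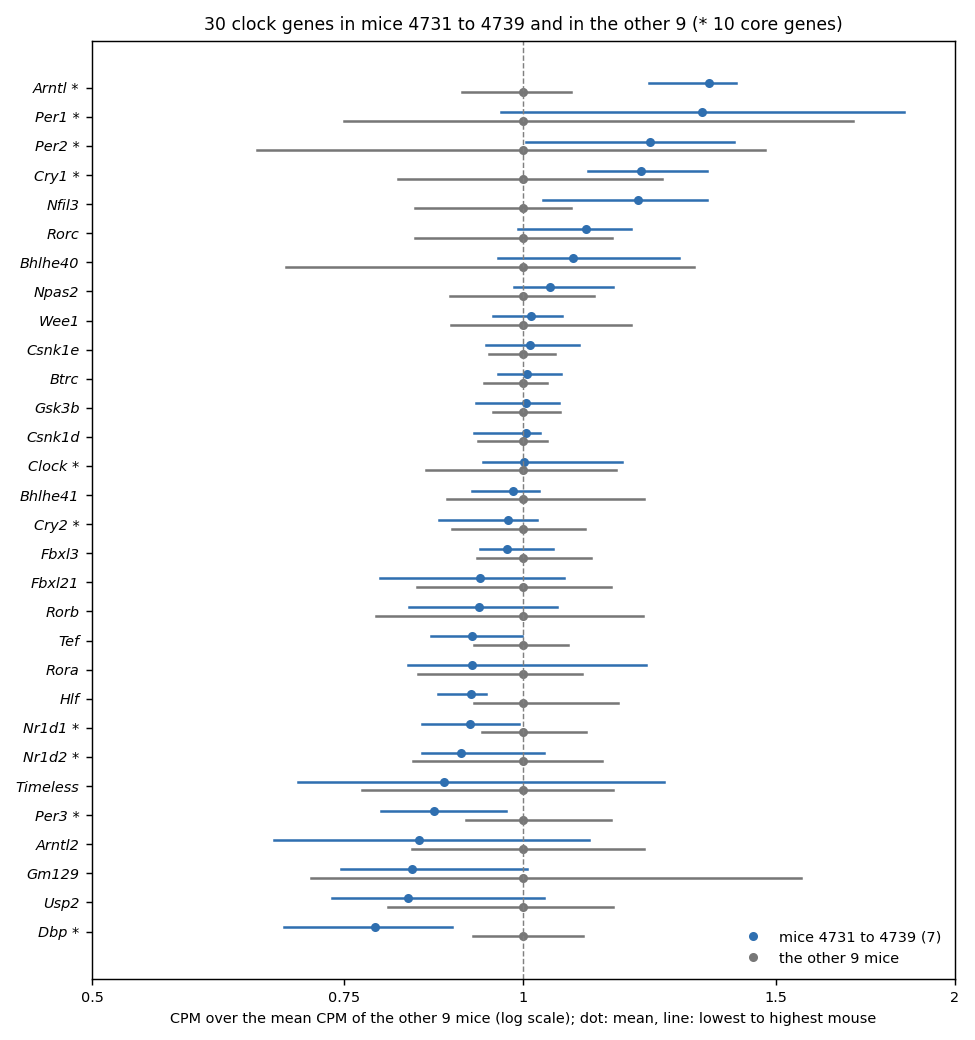
Range (line) and mean (dot) of 30 clock genes in mice Sample_4731 to Sample_4739 and in the other 9 mice, as CPM over the mean CPM of the other 9 on a log axis, ordered by the ratio of means. Dbp, at a ratio of 0.788, is at the bottom and Arntl, at 1.35, is at the top, and these are the genes whose lines do not overlap.

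The genes most and least like Dbp and Arntl are the extremes of a ranking on these same mice, so their values describe the ranking and carry no test. Likeness was Pearson's r of log2 CPM after genotype and sex, over 14117 genes with a mean of at least 1 CPM, and is given within each set of mice because the sets stand apart. Among the 5 genes most like Dbp over all mice, Slc9a8 had an r of 0.79 within the 7 mice and 0.70 within the other 9. Klf11, which encodes a transcription factor, had 0.80 and 0.71, Foxred2 0.57 and 0.76, Casp9 0.67 and 0.59, and Aim1l 0.50 and 0.56. At the opposite end Gtpbp4 had -0.85 in both sets, Ints8 -0.95 and -0.79, Znhit6 -0.87 and -0.66, Mphosph8 -0.81 and -0.74, and Prss53 -0.71 and -0.80. The genes most like Arntl held less evenly, with Prpf3 at 0.54 and 0.77, Banp at 0.55 and 0.76, Jmjd6 at 0.88 and 0.63, Hnrnpm at 0.27 and 0.83 and Jarid2 at 0.05 and 0.72. Those least like Arntl were Aph1c, B3gntl1, Mcm9, Fbxl4 and Rnf144a, and Fbxl4 had 0.35 within the 7 mice and -0.67 within the other 9.

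Genotype did not separate the clock genes. None of the 10 was called at an adjusted p under 0.05 by edgeR's quasi-likelihood test, and none had an unadjusted p under 0.05. Over all 16716 genes tested, 0% were called and 256 genes (1.53%) had an unadjusted p under 0.05. DESeq2 and limma-voom called none of the 10 either. No gene of the 16716 had ranges that did not overlap between the genotypes (0%).

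Per2 had the largest estimate by genotype. Its lowest, median and highest values were 38.6, 56.3 and 72.5 CPM among congenics and 32.0, 46.7 and 71.6 CPM among wild-types, which overlap. The log2 fold change, congenic minus wild-type, was 0.16 with a 95% interval of -0.11 to 0.44 (edgeR, adjusted p = 0.999). Per1, which lies on the same chromosome as Hnrnph1 at a distance of 18.7 Mb, had 58.6, 75.1 and 139.8 CPM among congenics and 56.9, 75.9 and 136 CPM among wild-types. Its log2 fold change was 0.06, with the widest interval of the 10, -0.27 to 0.39. Nr1d1, at 48.4 Mb from Hnrnph1, had 151 ± 12.7 CPM in the congenic group (SD, n = 8) and 154 ± 10.1 CPM in the wild-type group (SD, n = 8). Its log2 fold change of -0.03 had the narrowest interval, -0.14 to 0.07. This is from the gene table, and its summed bins gave 60.0 ± 11.5 and 61.6 ± 6.97 counts per M of bin counts in the same groups (SD, n = 8 each).

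The log2 fold changes of the other genes by genotype were 0.07 for Nr1d2, 0.05 for Clock, 0.04 for Cry1, 0.03 for Arntl, 0.00 for Per3, -0.01 for Dbp and -0.02 for Cry2. Arntl had 66.1 ± 12.9 CPM in the congenic group (SD, n = 8) and 65.0 ± 8.92 CPM in the wild-type group (SD, n = 8). Dbp had 77.5 ± 11.1 and 78.1 ± 11.3 CPM in the same groups. The split by mouse number thus runs through both genotypes. With the planned runs of mouse numbers, described below, as a covariate, none of the 10 genes was called by genotype. Those runs do not follow the split. The median log2 fold change was 0.04 over the 10 clock genes and 0.00 over all genes. Among the 20 other clock genes, 0 were called by genotype and Timeless was the 1 with an unadjusted p under 0.05 (log2 fold change -0.23, SE 0.09, edgeR p = 0.0213, adjusted p = 0.999).

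**Figure D3:**
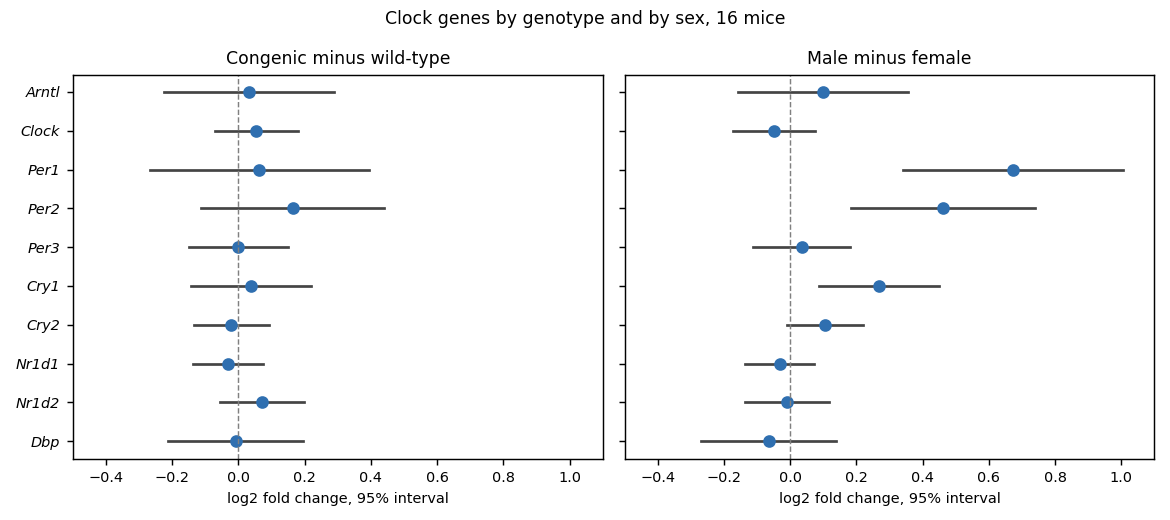
Log2 fold change (dot) with its 95% interval (line) of each clock gene, congenic minus wild-type on the left and male minus female on the right, from edgeR over 16 mice. All intervals by genotype span 0, while those of Per1 (0.67), Per2 (0.46) and Cry1 (0.27) by sex lie above 0 before adjustment for all genes.

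Per1, Per2 and Cry1, 3 repressors of the loop, had the largest estimates by sex, with males above females, but none passed the adjustment over all genes. Per1 had 69.3, 104 and 139.8 CPM (lowest, median, highest) in males and 56.9, 68.7 and 78.6 CPM in females, so the groups overlapped. Its log2 fold change, male minus female, was 0.67 (SE 0.16, 95% interval 0.34 to 1.004, edgeR p = 0.000665, adjusted p = 0.120). Per2 had 42.9, 65.0 and 72.5 CPM in males and 32.0, 46.0 and 57.5 CPM in females. Its log2 fold change was 0.46 (SE 0.13, 95% interval 0.18 to 0.74, edgeR p = 0.00298, adjusted p = 0.164). Cry1 had 35.5, 43.4 and 48.0 CPM in males and 29.2, 36.3 and 40.7 CPM in females. Its log2 fold change was 0.27 (SE 0.09, 95% interval 0.09 to 0.45, edgeR p = 0.00607, adjusted p = 0.192). Of all genes, 2464 (14.7%) had an unadjusted p under 0.05 by sex and 23 (0.138%) were called.

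The call for Per1 and Per2 differed between tools, and that for Per1 also with 1 mouse left out. DESeq2 called 259 genes by sex (1.55%), Per1 among them with an adjusted p of 0.0053 and Per2 with an adjusted p of 0.0359, while Cry1 had an adjusted p of 0.0656. By edgeR, Per1 passed when Sample_4673 was left out (adjusted p = 0.0483) or Sample_4712 (adjusted p = 0.0335), both males with low Per1. Without Sample_4806 the log2 fold change was 0.63 for Per1, 0.40 for Per2 and 0.22 for Cry1 (edgeR, adjusted p = 0.256, 0.301 and 0.355). The other 7 genes lay within -0.06 for Dbp and 0.11 for Cry2, each with an interval that spans 0.

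Sex goes with mouse number, since the males are numbered Sample_4671 to Sample_4673, Sample_4712 and Sample_4731 to Sample_4734. Within mice Sample_4731 to Sample_4739, Per1 had 139.8, 112, 96.6 and 136 CPM in the 4 males and 76.0, 73.2 and 74.2 CPM in the 3 females. Within mice Sample_4671 to Sample_4677, it had 129, 92.9 and 73.4 CPM in the 3 males and 78.6 and 64.2 CPM in the 2 females, which overlap. Male Sample_4712 had 69.3 CPM, below female Sample_4676. Among mice Sample_4731 to Sample_4739, Per1, Per2 and Cry1 were higher and Dbp lower in every male than in every female, as were 1680 genes in one direction or the other (10.1%). Over all 16 mice 15 genes did not overlap between the sexes (0.0897%), and none of the 10 was among them. Mouse numbers were also grouped into 3 runs, Sample_4671 to Sample_4677, Sample_4712 to Sample_4753, and Sample_4804 with Sample_4806. The middle run joins mice Sample_4731 to Sample_4739 with Sample_4712 and Sample_4753, so the runs do not follow the split of Arntl and Dbp. With these 3 runs as a covariate the log2 fold change was 0.59 for Per1, 0.35 for Per2 and 0.18 for Cry1 (edgeR, adjusted p = 0.459, 0.517 and 0.557). With runs split at every gap over 10 it was 0.61, 0.37 and 0.17 (edgeR, adjusted p = 0.189, 0.251 and 0.350).

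Immediate early genes, which respond to neuronal activity, were high in the same mice as Per1. Of 16 such genes, 15 had a positive log2 fold change, male minus female, with a median of 0.64, where the median over all genes was -0.0049 and 48.0% were positive. None was called by edgeR and 12 had an unadjusted p under 0.05. For this and the lists below, the shares over all genes by sex were 0.138% called and 14.7% with an unadjusted p under 0.05. Nr4a1 had a log2 fold change of 1.52 (SE 0.35), Egr3 0.37 (SE 0.09) and Sik1 0.36 (SE 0.10). Their summed level was 1276 CPM in Sample_4671, 1114 CPM in Sample_4731, 1070 CPM in Sample_4732 and 1386 CPM in Sample_4734, and at most 847 CPM in the other 12. These are also the 4 mice with the highest Per1, all above 100 CPM, a level that was not set in advance. Below them the order differed. Sample_4733 had Per1 at 96.6 CPM and a sum of 707 CPM, and female Sample_4739 had 74.2 and 734 CPM. Of 8 cortical markers, 0 had a positive log2 fold change, male minus female, the median was -0.68, 2 had an unadjusted p under 0.05 and 0 were called, and they summed to 33.7 to 243 CPM in males and 46.4 to 274 CPM in females. All 12 markers of striatal projection neurons were positive, with a median of 0.09, 4 with an unadjusted p under 0.05 and 0 called. Of 5 microglial markers, 4 were positive, with a median of 0.10, 3 with an unadjusted p under 0.05 and 0 called. Glucocorticoid-responsive genes had 11 of 15 positive with a median of 0.04, and 0 were called. The part of these lists in the difference of Per1 was not tested.

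The genotype effect was not shown to differ between the sexes for any of the 10 genes. The smallest unadjusted p of the interaction was 0.108 for Nr1d2 (edgeR, adjusted p = 0.967), with an estimate of 0.20 on the log2 scale and a 95% interval of -0.05 to 0.44. The estimate for Arntl was -0.25 with an interval of -0.77 to 0.26. Over all genes, 0% were called for the interaction and 698 (4.18%) had an unadjusted p under 0.05. Of the 20 other clock genes, 0 were called by sex and 4 had an unadjusted p under 0.05. Over all genes these shares by sex were 0.138% and 14.7%. The 4 genes included Bhlhe41, which encodes a repressor at E-boxes (log2 fold change 0.18, SE 0.06), Fbxl21 (-0.19, SE 0.07) and Wee1 (0.12, SE 0.05).

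Levels of the 10 genes were then correlated over mice in 45 pairs, with permutation p-values adjusted over the 45. Pairs with Arntl or Dbp get no pooled correlation, because the levels of both genes split along the 2 sets of mice. Arntl fell into 2 clusters. Dbp was apart only narrowly, at up to 76.5 CPM in the 7 mice and from 79.1 CPM in the other 9. Within the 7 mice, r between Arntl and Dbp was -0.52 (exact permutation, adjusted p = 0.702), and within the other 9 it was 0.24 (exact permutation, adjusted p = 0.702). The opposite movement of Arntl and Dbp was thus seen between the sets, which were chosen after seeing the data, and was not detectable inside either.

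Of the 28 pairs without Arntl and Dbp, 4 passed. Per2 and Cry1 had the highest r, 0.92 (rho 0.86, permutation, adjusted p = 0.000225 for r and 0.000675 for rho, n = 16), and 0.93 without the 2 mice farthest from the median of Per2. Per1 and Per2 had an r of 0.87 (rho 0.90, permutation, adjusted p = 0.000225 and 0.00045), and 0.88 without the farthest 2. For Per1 and Cry1 r was 0.81 (rho 0.84, permutation, adjusted p = 0.00191 and 0.0012), and 0.82 without them. Clock and Cry2 moved in opposite directions, with an r of -0.80 (rho -0.81, permutation, adjusted p = 0.00191 and 0.00371) and -0.76 without the farthest 2. The raw p of the first 2 pairs, 1e-05, is the smallest that 100000 permutations can give.

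Within the 9 mice outside the run, the 3 pairs of Per1, Per2 and Cry1 passed too, with r of 0.90, 0.81 and 0.93 (exact permutation, adjusted p = 0.0121 for Per1 with Per2, 0.0499 for Per1 with Cry1 and 0.0121 for Per2 with Cry1). Clock and Cry2 had -0.79 there (exact permutation, adjusted p = 0.0722). Within the 7 mice none of the 45 pairs passed after adjustment, and these 4 pairs had r of 0.87, 0.68, 0.72 and -0.92. In those 9 mice, Cry2 and Dbp had an r of 0.94 (exact permutation, adjusted p = 0.0121), against -0.12 (exact permutation, adjusted p = 0.924) in the 7. With sex and genotype alone taken out, r was 0.77 for Per1 with Per2, 0.66 for Per1 with Cry1, 0.88 for Per2 with Cry1 and -0.83 for Clock with Cry2 (permutation, adjusted p = 0.00458, 0.0302, 0.00405 and 0.00405). With the 3 runs of mouse numbers also taken out, r was 0.76, 0.61, 0.81 and -0.89 (permutation, adjusted p = 0.00756, 0.0550, 0.00405 and 0.0009). As said above, these 3 runs do not follow the sets of 7 and 9 mice. With the runs split at every gap over 10 in place of the 3, r was 0.55, 0.13, 0.68 and -0.87. No p is given for these, because Sample_4712 and Sample_4753 are each alone in their run. The permutations of residuals do not allow for the terms taken out, so their p-values are too small.

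The 3 repressors also moved with the first principal component over all genes, which held 22.3% of the variance and had mice Sample_4753, Sample_4804 and Sample_4806 at its high end. Over 16 mice r with it was -0.76 for Per1, -0.86 for Per2 and -0.86 for Cry1 (rho -0.78, -0.84 and -0.80, permutation, adjusted p over 10 genes = 0.00257, 1e-04 and 1e-04 for r). Without the 2 mice farthest from its median, r was -0.67, -0.78 and -0.74. All mice labelled male lay on the negative side of the component, from -22.7 in Sample_4672 to -5.29 in Sample_4733, as did females Sample_4737 and Sample_4739. Sample_4806, labelled female but with little Xist, lay at 25.6. Sex was not taken out of these r values. The part of this component in the correlations between genes was not tested.

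**Figure D4:**
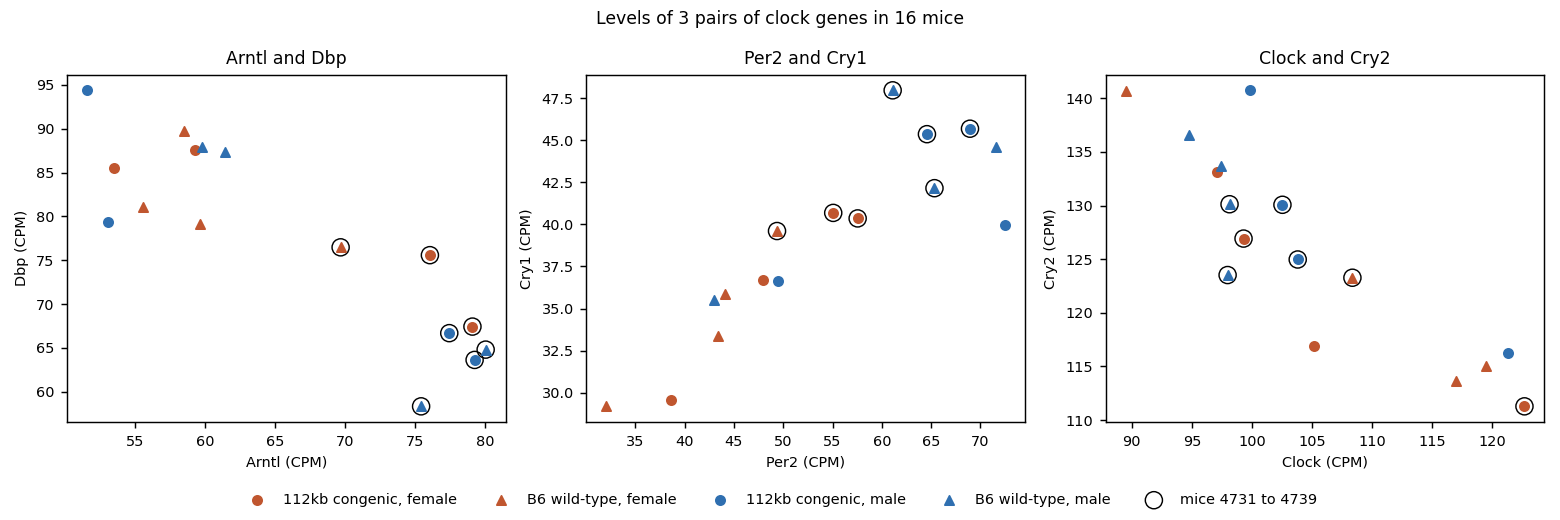
Levels in CPM of 3 pairs of clock genes in 16 mice, with colour for sex, shape for genotype and a ring around mice Sample_4731 to Sample_4739. The ringed mice form a cluster high in Arntl and lie lower in Dbp with a narrow gap. Per2 and Cry1 rise together (r 0.92) and Clock and Cry2 run in opposite directions (r -0.80), where r is of log2 CPM.

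No difference in exon use was called in the clock genes by genotype or by sex. Exon bins are the pieces into which overlapping transcripts cut the exons of a gene, and each bin was set against the rest of its gene with edgeR's diffSpliceDGE. Of the 203 bins of the 10 genes, 189 were tested. None of the 10 genes was called by genotype, where 1 of 14875 genes was (0.00672%), or by sex, where 19 were (0.128%). No bin of the 10 had an unadjusted p under 0.05 by genotype, against 1.03% of all bins, and 4 had by sex, against 3.25% of all bins. The smallest was bin 12 of Cry2 by sex, with a log2 fold change of -0.20 relative to the rest of the gene (edgeR p = 0.00162, adjusted p = 0.884).

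The exon table does not see all of Dbp. The gene spans chromosome 7, 52960458 to 52965525, on NCBIM37. Its bins 8 to 11, which start at 52965035 and hold the end of the coding sequence and the 3′ untranslated region, had 0 counts in all 16 mice. The overlap with Sphk2 lies at this end. Exon use was therefore not measured there. The bins of Nr1d1 summed to 0.650 of its gene counts, while those of the other 9 genes summed to between 1.26 for Nr1d2 and 1.68 for Arntl, where a count that spans several bins adds to each. Bins 5 and 6 of Dbp, which carry neither coding sequence nor untranslated region in the annotation, held 16.0% ± 1.76 of its bin counts (SD, n = 16), with 15.9% ± 1.41 in mice Sample_4731 to Sample_4739 and 16.2% ± 2.07 in the other 9. The summed bins of Arntl also stood clear between these mice, at 73.2 to 82.7 against 52.9 to 62.8 counts per M of bin counts, while those of Dbp overlapped, at 53.7 to 72.5 against 71.9 to 86.9. Both tables come from the same reads.

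**Figure D5:**
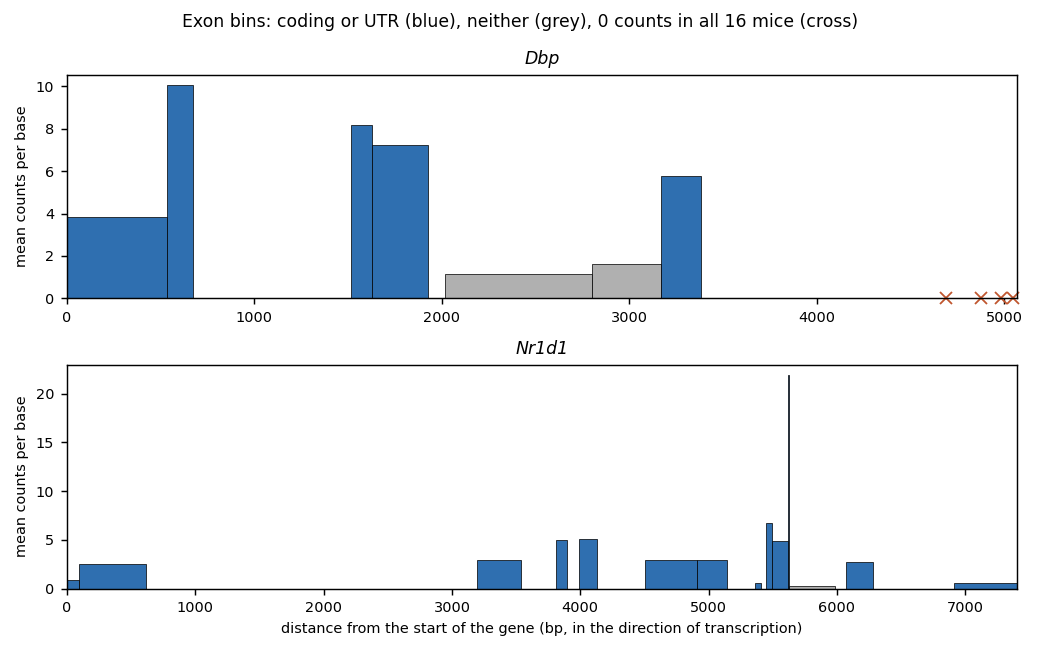
Mean counts per base (vertical axis) of the exon bins of Dbp and Nr1d1 over 16 mice, along the distance in bp from the start of the gene (horizontal axis), with bar width to scale. Crosses mark bins 8 to 11 of Dbp, which had 0 counts in every mouse, and grey bars mark bins with neither coding sequence nor untranslated region.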

How the data were processed

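Striatal RNA of 16 mice was sequenced in 48 runs, 3 lanes per mouse. The authors deposited whole-number counts per gene and per exon bin, not normalised, per the file headers and values. Per the submitters' processing notes, HTSeq 0.6.1p1, FastQC 0.10.1, limma 3.22.7 and edgeR 3.8.6 and the builds mm9 and mm10 were used, with no role given. No aligner or strand setting is given in the sources used here, and the labels give the reads both as single-end and as paired-end. Of gene counts from 1 to 10, 62.0% were even, so a count is not always an independent fragment. Bin numbers rebuilt from the GENCODE annotation of NCBIM37 were the same in 16983 of the 17574 genes that have 5 bins or more (96.6%), and gene coordinates are on NCBIM37. Promoters are RefSeq's on GRCm38.p6, and no coordinate was converted.

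Lanes were summed per mouse, so n counts mice. Totals were 73.1 to 82.0 M gene counts and 118.5 to 133.2 M bin counts (M for the mega prefix). The main test was edgeR 4.0.16 (R 4.3.3) with TMM scaling, filterByExpr (minimum count 10, minimum total 15), the robust quasi-likelihood test, sex and genotype as terms and Benjamini-Hochberg adjustment over all genes. Exon use was tested with diffSpliceDGE and the Simes method. Correlations used log2 CPM with a prior count of 2, and two-sided permutation with 100000 resamples, or all permutations up to 9 mice. All tests were two-sided, and intervals are at 95%. The gene and exon tests were tested on simulated data with 200 changed genes or bins. Alternatives were DESeq2 1.42.0, limma-voom (limma 3.58.1), library size alone, no filter, runs of mouse numbers as a covariate, each lane alone and each mouse left out. Runs split at gaps over 10, and the sets of mice Sample_4731 to Sample_4739 and the other 9, were chosen after seeing the data. The genes, lists and rules were chosen with earlier results of these data known. All 10 clock genes are named. From other lists the genes past an adjusted p of 0.05, or otherwise up to 3 of smallest p, and the 5 genes most and least like Dbp and Arntl are named. Nfil3, Tef, Hlf, Arntl2, Usp2, Ciart, Csnk1d and Csnk1e were singled out after their values were seen. The labels do not pair mice or say which shared a litter.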

Additional observations from a re-analysis of the deposited data

Results flagged for a closer look

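Clock in Sample_4673 had 121 CPM, apart from the other 7 males, whose highest was 104 CPM. It stood out by Dixon's test for a single extreme value. Of 40 sets of 8 mice tested (10 genes by genotype and by sex), this was the 1 that stood out, where chance gives about 1 in 20.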

How the results depend on the processing

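No paired analysis was possible because the labels pair no mice across groups. By genotype and for the interaction, 0 of the 10 clock genes were called in each of the 25 alternatives. By sex 0 were called, except for 2 with DESeq2 (Per1 and Per2) and 0 to 1 when each mouse was left out, the 1 being Per1 without Sample_4673 or Sample_4712. The cause was not tested. Log2 fold changes not called changed sign in some alternatives, for example that of Per3 by genotype in 11 of 25 and that of Nr1d2 by sex in 8 of 25, while those of Per1, Per2 and Cry1 by sex were positive in all 25. Exon use gave 0 of 10 genes by genotype and by sex with limma's diffSplice and with bins of at least 10 counts in every mouse. Of the 28 pairs of genes, 4 passed, and leaving out each mouse gave 4 to 7, with 7 without Sample_4671 and 7 without Sample_4712. Residuals after sex and genotype gave 6, and with planned runs 5, where the p-values do not allow for the terms taken out. Among the 8 males 0 pairs passed, among the 8 females 2, among the 8 congenics 1 and among the 8 wild-types 2. With runs split at gaps over 10 the log2 fold change of Cry1 by sex was 0.17, against 0.27. With the planned runs, Per1 with Cry1 had an r of 0.61 (permutation, adjusted p = 0.0550). Depth did not limit the 10 genes, with at least 2228 counts each, and the number of mice sets the width of the intervals.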
